A study of Homo sapiens with 18 samples.

Results

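BC200 is a short non-coding RNA, annotated as the gene BCYRN1, and it is described here over every annotated BC200 copy in 2 tables of repeat counts. The members are all copies whose repeat name is BC200. They number 112 of the 2472685 copies that occur in either table, 107 of 2404193 in the 5-FU table and 94 of 1996647 in the Nutlin table, with 89 in both. The main copy lies on chromosome 2 from 47562454 to 47562653 (hg19) and covers repeat positions 1 to 200, the whole RNA. The RNA was chosen by its measured difference between 5-FU and DMSO at 12 h and 24 h, so those values are given as a description without a test.

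The series holds 18 samples in 9 groups of 2, all total RNA of wildtype IMR90, a human cell line of lung fibroblasts. Untreated cells had received fresh medium 12 h before extraction. Drug groups received Nutlin, which blocks the binding of MDM2 to p53, at 5 µM for 6 h, or 5-fluorouracil (5-FU), a pyrimidine analogue that disturbs RNA and DNA synthesis, at 375 µM for 6, 12 or 24 h. The protocol names no drug beside the higher dose, which was taken as that of 5-FU because the lower is given for Nutlin. DMSO samples of the same drug and time had the volume of solvent that came with the drug. The labels do not say whether replicates were separate cultures, so p-values measure only the spread between these samples. The tables list repeats and no genes, so the fibroblast label could not be checked against marker genes.

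BC200 is made by RNA polymerase III, the enzyme that also makes 7SK, 7SL, U6, 5S, Y and transfer RNAs. Its first part derives from an Alu monomer, a retroposed relative of 7SL RNA, and is followed by an A-rich stretch and a unique C-rich end. It is best known from neurons, where it is found in dendrites and has been described as a repressor of translation, and it has also been found in tumour tissue and in dividing cells in culture. Genomic copies named BC200 other than the main one are mostly partial.

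In the annotation BCYRN1 lies within EPCAM-DT, a long non-coding RNA gene on the opposite strand. The labels name a stranded kit, but whether the counting used strand is not given in the sources used here, so reads of the 2 genes cannot be told apart at this copy.

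Library totals ran from 2412334 to 6290320 counts in the 5-FU table, with DMSO 12 h the shallowest group at 2412334 and 2540089. In the Nutlin table they ran from 9109885 to 11880265. Its untreated columns held identical values, so they count as 1 sample. By their labels they are the untreated samples of the 5-FU table, so that sample is not independent of those. Which of them it repeats was not tested. At the BC200 copies on chromosomes 4 (from 103732930) and 17 (from 73795928) it had 8 and 5 counts. Untreated replicate 1 of the 5-FU table had 8 and 5 there, and replicate 2 had 0 and 0. At the main copy it had 11654 counts, beside 10064 and 8953. The untreated totals were 3481300 and 2895007 in the 5-FU table but 9669973 in the Nutlin table. The cause of that difference was not tested. Most counts of the Nutlin table lay in 7SL RNA, at 659216 ± 29020 CPM in DMSO (SD, n = 2), a unit explained below, so levels are compared only within a table. In 1 library of the Nutlin table, DMSO replicate 1, BC200 counts stood at another copy than in all the other libraries. Each Nutlin difference that is fitted on that library is given with and without it, with the copies or names tested kept the same.

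The main copy was among the most highly counted repeat copies of these fibroblasts. Its rank among all copies of the 5-FU table ran from 43rd in a DMSO 12 h library to 8th in a 5-FU 24 h library. All BC200 copies together held 0.111% of the counts in DMSO 12 h replicate 1 (95% Wilson interval 0.107% to 0.115%) and 1.37% in 5-FU 24 h replicate 1 (1.36% to 1.38%), the lowest and the highest shares. Intervals of this kind cover counting error only. In the 14 libraries of that table the main copy supplied 98.1% to 99.9% of the BC200 counts.

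In untreated cells the main copy had 10064 and 8953 raw counts. The DMSO 6 h libraries had 11712 and 13307, those of DMSO 12 h 2626 and 2831, and those of DMSO 24 h 11938 and 12105. The 5-FU 6 h libraries had 17039 and 19435 counts, those of 12 h 33662 and 41849, and those of 24 h 68803 and 68862. Every 5-FU library thus held more BC200 counts than every library without the drug.

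Scaling for depth left that order in place. CPM here are counts set to a common library size of 1000000 after TMM scaling (trimmed mean of M-values), which sets libraries level on the bulk of the copies. The main copy stood at 2518 and 2676 CPM in untreated cells, 2438 and 2599 in DMSO 6 h, 973 and 1083 in DMSO 12 h, and 2235 and 2083 in DMSO 24 h. In the 5-FU libraries it stood at 3651 and 3695 CPM after 6 h, at 9895 and 12152 after 12 h, and at 15938 and 10665 after 24 h. DMSO 12 h was the low group among the controls, and the replicates of 5-FU 24 h were the furthest apart.

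**Figure D1:**
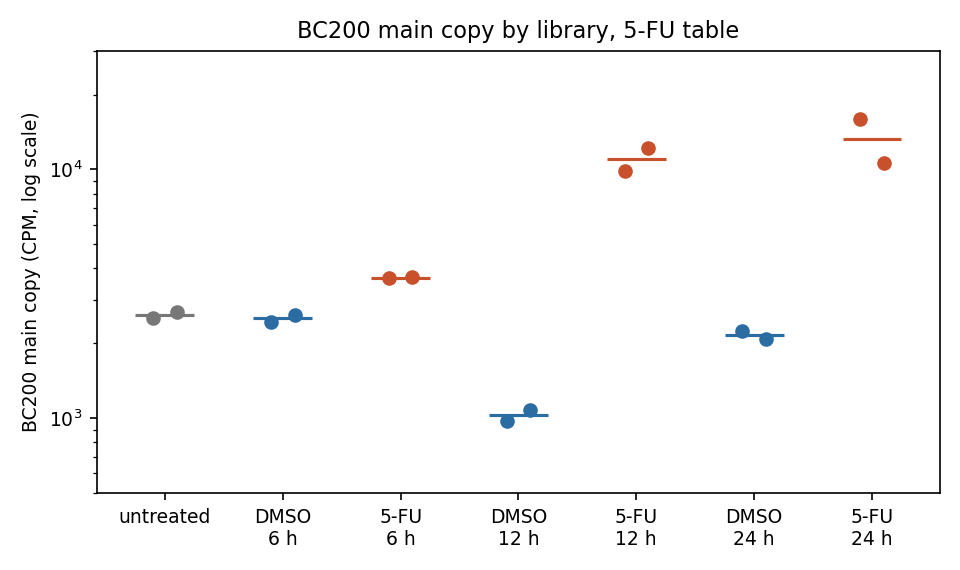
CPM of the main BC200 copy (vertical log axis) in the 14 libraries of the 5-FU table, by group (horizontal axis). Points are libraries and bars are means of 2. The 5-FU libraries sit between 3651 and 15938 CPM, all above the 8 libraries without the drug, and the DMSO 12 h libraries sit lowest, at 973 and 1083.

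Ordered by mean CPM, 5-FU 24 h came first with 13301 ± 3729 (SD, n = 2 here and below), followed by 5-FU 12 h with 11024 ± 1596. These 2 groups overlapped. 5-FU 6 h followed with 3673 ± 30.9 CPM. Untreated cells, at 2597 ± 111, and DMSO 6 h, at 2518 ± 114, overlapped. DMSO 24 h had 2159 ± 108 CPM and DMSO 12 h 1028 ± 77.3, and neither overlapped its neighbour in the order.

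The design asks first how BC200 behaved under 5-FU at each time, against DMSO of the same time. At 6 h the main copy was 1.46-fold the DMSO level, a log2 difference of 0.54 ± 0.25 (SE). The groups did not overlap, but the difference did not pass the test over all copies (edgeR's quasi-likelihood test, Benjamini-Hochberg adjusted p = 0.661, unadjusted p = 0.0415). Of the 63602 copies tested in this comparison, 0.101% passed. Without the filter on low counts the adjusted p was 0.00126, with a log2 difference of 0.67. The difference passed under none of the other scalings and filters tried.

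At 12 h the main copy stood 10.7-fold above its DMSO group, a log2 difference of 3.42 ± 0.28. At 24 h it stood 6.16-fold above, a log2 difference of 2.62 ± 0.27. The groups did not overlap at either time. These are the contrasts by which the RNA was picked. Of all tested copies 9.71% passed the threshold at 12 h and 4.23% at 24 h, and nothing is read from the comparison with those shares.

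The value at 12 h rests on the low DMSO 12 h group. Against the DMSO 6 h and 24 h groups, 5-FU 12 h was 4.73-fold higher, a log2 difference of 2.24. Against DMSO 6 h and 12 h, 5-FU 24 h was 8.27-fold higher, or 3.05 on the log2 scale. By mean level 5-FU 12 h did not exceed 5-FU 24 h, so the order of the 2 times by fold is the reverse of their order by level. The DMSO 12 h libraries are also the shallowest of the table, and the part of depth in their low level was not tested. Because RNA of whole cultures was measured, a change in the cells present and a change in RNA per cell cannot be told apart.

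DMSO at 6 h was itself compared with untreated cells. The latter have no treatment time and had fresh medium 12 h before extraction. Solvent, time and medium change thus cannot be told apart here. The main copy differed by -0.04 ± 0.25 on the log2 scale, which did not pass the test (edgeR adjusted p = 0.954), and the groups overlapped. Of all tested copies 1.37% passed in this comparison. The DMSO 12 h level lay below both untreated libraries and that of DMSO 24 h did too. As those DMSO groups took part in the choice of the RNA, they were not tested.

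A ratio of counts within a library does not depend on the scaling of libraries. 7SK, a polymerase III RNA that holds the transcription factor P-TEFb inactive, served as one such reference. Untreated cells had 32.7 and 29.1 BC200 counts per 1000 7SK counts. DMSO libraries had 30.1 and 28.6 (6 h), 16.3 and 17.6 (12 h), and 21.9 and 25.3 (24 h). The ratio with 5-FU was 32.2 and 30.2 (6 h), 55.4 and 58.5 (12 h), and 89.3 and 103 (24 h).

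Relative to 7SK, then, BC200 in both 5-FU 6 h libraries lay within the range of the untreated libraries and above both DMSO 6 h libraries. On that reference the 5-FU 24 h libraries exceeded the 5-FU 12 h libraries without overlap. Not every reference gave that order of the 2 times. Per 1000 U6 counts they overlapped, at 38148 and 43130 for 12 h and 43470 and 41968 for 24 h. Per 1000 HY1 counts the mean was higher at 12 h, 16828 ± 5191 against 11865 ± 695, as it was for HY3 and HY4. DMSO 12 h stood lowest on all 6 references. The mean ratio at 24 h was 96.3 ± 9.89 per 1000, against 57.0 ± 2.18 at 12 h. 7SK itself was higher with 5-FU at 12 h, by 1.89 ± 0.21 on the log2 scale. Its difference at 24 h was 0.67 ± 0.21.

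7SL RNA, the scaffold of the signal recognition particle and the ancestor of Alu, gave another reference. BC200 counts per 1000 7SL counts were 54.7 and 53.4 in untreated cells, 51.3 and 61.8 in DMSO 6 h and 51.3 and 60.4 in DMSO 24 h. They were 10.5 and 9.01 in DMSO 12 h. The 5-FU libraries had 66.2 and 61.0 (6 h), 103 and 120 (12 h), and 183 and 214 (24 h). The DMSO 12 h libraries again stood lowest and the 5-FU 24 h libraries highest. 7SL itself stood at 90948 ± 15184 CPM in DMSO 12 h, above untreated cells (51161 ± 2429), DMSO 6 h (45073 ± 3669) and DMSO 24 h (39405 ± 7683), so the low ratio in DMSO 12 h holds a high reference as well.

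**Figure D2:**
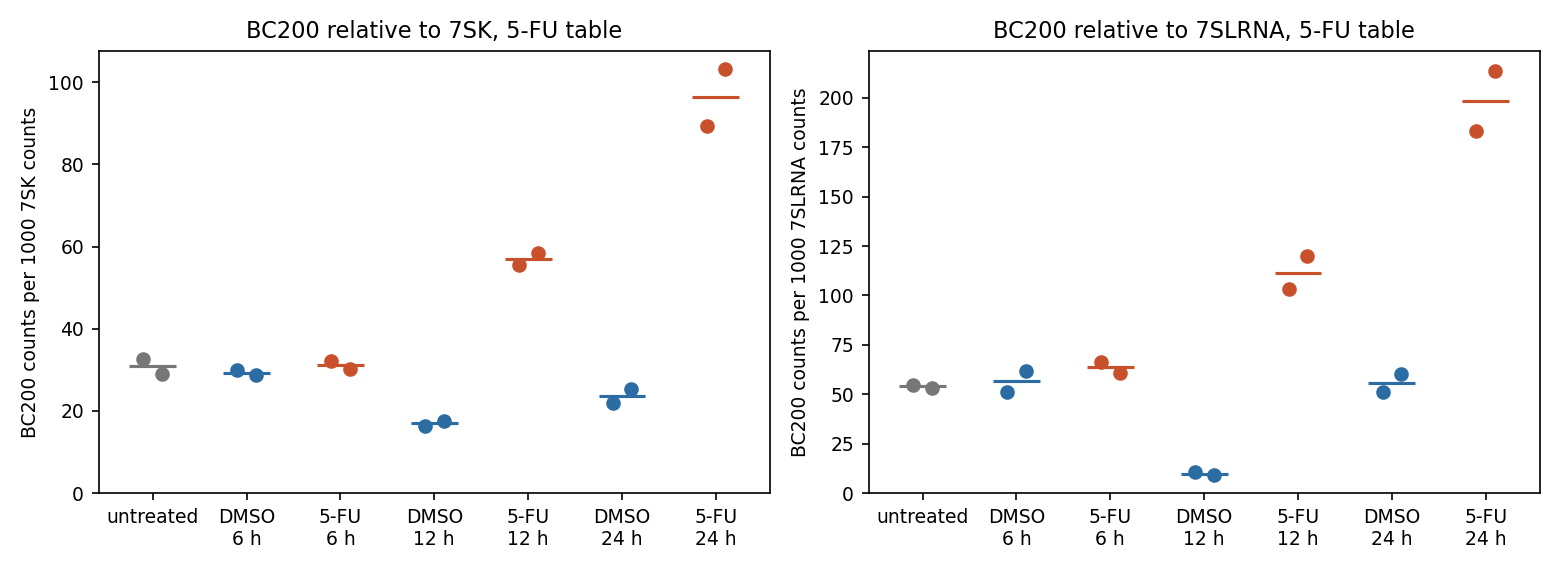
BC200 counts per 1000 counts of 7SK (left) and per 1000 counts of 7SL, listed as 7SLRNA (right), in the 14 libraries of the 5-FU table by group; both vertical axes start at 0, points are libraries and bars are means of 2. On both references 5-FU 24 h stands highest, with 89.3 and 103 per 1000 7SK, and DMSO 12 h lowest, with 16.3 and 17.6.

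Nutlin for 6 h was the comparison with the other drug. BC200 counts, summed over the main copy and its X-linked relative, differed little from DMSO. The sum was 1184 and 1221 CPM in DMSO and 1116 and 1218 CPM with Nutlin, and 1088 CPM in the untreated sample. The log2 difference was -0.04 ± 0.09, and the groups overlapped (edgeR adjusted p = 0.839). Of the 21328 copies tested in that comparison, 9.57% passed. Leaving out each library in turn gave -0.12 to 0.01.

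The sum leads here because of the library named above. At the main copy the untreated sample had 11654 counts, DMSO replicate 2 had 11718, and the Nutlin libraries had 12659 and 10091, but DMSO replicate 1 had 15. At the X-linked copy, from 138802738 to 138802934 and covering repeat positions 1 to 197, DMSO replicate 1 had 10947 counts. The other 4 libraries had 0, 0, 1 and 1 there. In that library the X-linked copy held 99.3% of the BC200 counts and the main copy 0.136%, and the total over all BC200 copies was 11024, beside 11784 in DMSO replicate 2.

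The RefSeq gene table lists a pseudogene of BCYRN1 on the X chromosome, BCYRN1P1, with a length of 197 bases. How reads that match several copies were assigned is not given in the sources used here, and its part in this library was not tested. Taken alone, the main copy had a log2 difference between Nutlin and DMSO of 0.93 ± 1.28 (edgeR adjusted p = 0.727). Without DMSO replicate 1 the difference was -0.08. In the 5-FU table the X-linked copy never had more than 5 counts in a library.

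**Figure D3:**
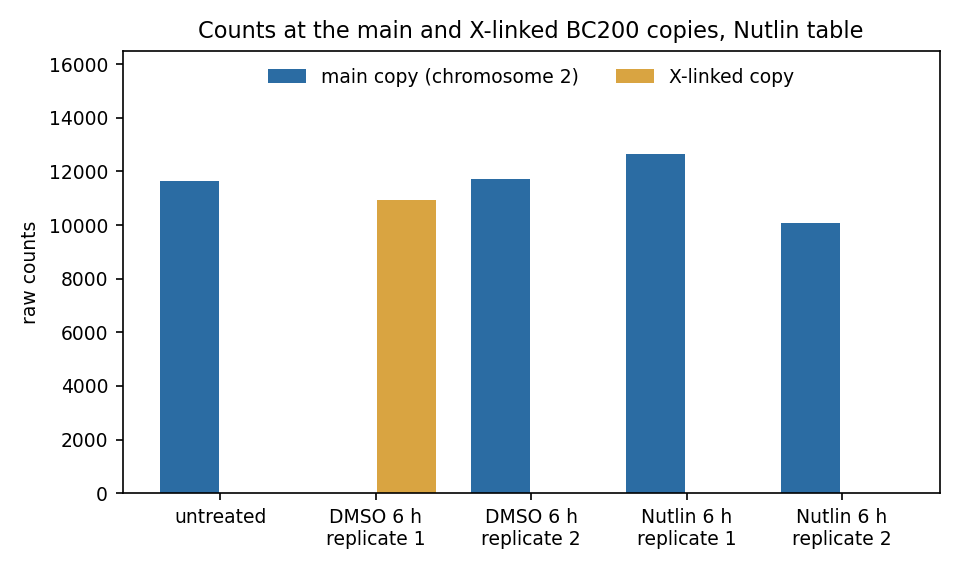
Raw counts (vertical axis, from 0) at the main copy on chromosome 2 and at the X-linked BC200 copy in the 5 libraries of the Nutlin table (horizontal axis). In DMSO replicate 1 the counts stand at the X-linked copy, 10947 against 15, while the other 4 libraries have 10091 to 12659 at the main copy and at most 1 at the X-linked copy.

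BC200 per 1000 7SK counts was 21.5 in the untreated sample, 21.2 and 22.3 in DMSO, and 16.3 and 17.04 with Nutlin. This ratio uses all BC200 copies and does not depend on which copy received the reads. The Nutlin libraries lay below the others. 7SK itself was higher with Nutlin by 0.37 ± 0.06 on the log2 scale (edgeR adjusted p = 1.42e-05 over all names), and it passed under all 4 scalings tried. Without DMSO replicate 1 the 7SK difference was 0.34 ± 0.14 and no longer passed (edgeR adjusted p = 0.117). BC200 summed over all copies differed by -0.02 ± 0.08 (edgeR adjusted p = 0.918), and by -0.08 ± 0.14 without that library. On library size alone, where the median of all names was -0.11, the BC200 sum fell by 0.19 and passed the threshold, as it did in none of the other 3 scalings.

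The other BC200 copies gave few counts. In the 5-FU table there are 106, of which 43 had 0 counts in all 14 libraries, 46 had 1 to 10 counts in all and 17 had more. The 3 that passed the filter on low counts are named. Without the main and the X-linked copy, the rest together had 29 to 128 counts per library. The Nutlin table has 93 other copies, 45 of them at 0 everywhere.

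Most of these copies are partial. The other copies of the 5-FU table have a median length of 124 bases, from 75 to 197, beside 200 at the main copy. Only 2 of the 106 come within 5 bases of the full length.

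**Figure D4:**
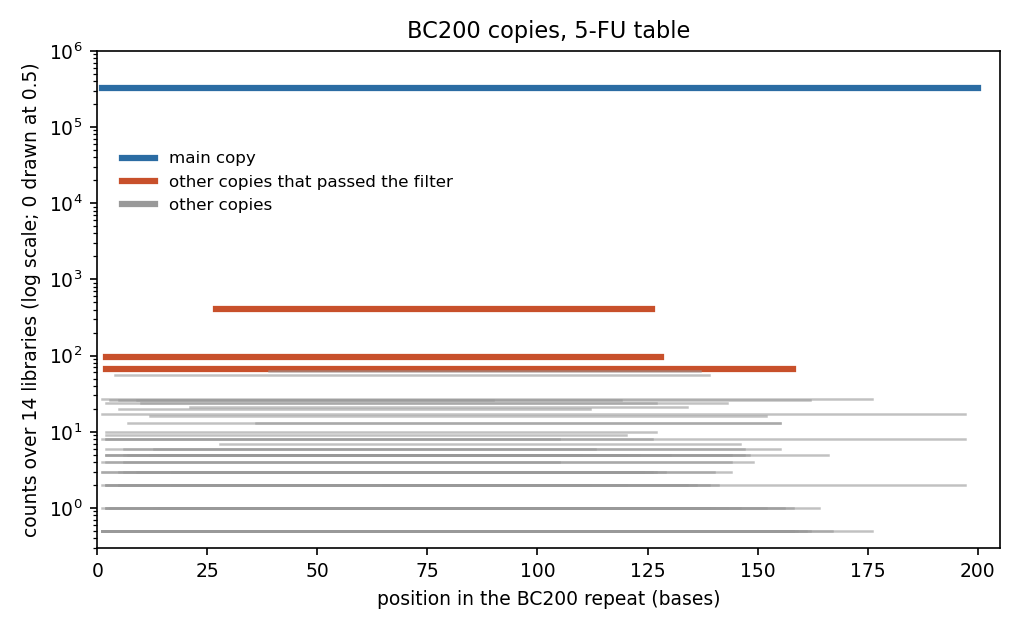
Each BC200 copy of the 5-FU table as a line from its first to its last position in the repeat (horizontal axis, bases), at its raw counts summed over 14 libraries (vertical log axis, copies at 0 drawn at 0.5). The main copy, at 323186 counts, spans the whole repeat, and the next copy has 410.

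The most counted partial copy lies on chromosome 17 from 38521447 to 38521542 and covers repeat positions 27 to 126. It had 46 and 36 counts in untreated cells, 40 and 20 in DMSO 6 h, 22 and 10 in DMSO 12 h, and 45 and 24 in DMSO 24 h. The 5-FU libraries had 21 and 38 (6 h), 17 and 11 (12 h), and 35 and 45 (24 h). The 5-FU and DMSO libraries overlapped at each time.

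In CPM the chromosome 17 copy differed by -0.55 ± 0.51 on the log2 scale at 12 h and by 0.26 ± 0.43 at 24 h. In the Nutlin table it had 47 counts in the untreated sample, 22 and 34 in DMSO, and 51 and 47 with Nutlin. The log2 difference for Nutlin was 0.76 ± 0.30, which did not pass the test (edgeR adjusted p = 0.144). It was 0.49 ± 0.37 without DMSO replicate 1. The other copies that passed the filter in the 5-FU table had 0 to 19 counts (chromosome 5, from 140765964) and 1 to 13 counts (chromosome 10, from 94445935) in a library.

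Summed, the copies other than the main and the X-linked one differed by 0.28 at 6 h (edgeR adjusted p = 0.720). At 12 h and 24 h the log2 differences were -0.10 ± 0.32 and 0.27 ± 0.26. The corresponding values of the main and X-linked copies in the same fit were 3.66 ± 0.17 and 2.69 ± 0.16. The difference in BC200 counts between 5-FU and DMSO stood at the main copy, and that between the 2 kinds of copies was not tested. With Nutlin the sum of the partial copies differed by 0.30 ± 0.22 (edgeR adjusted p = 0.452), and by 0.24 ± 0.26 without DMSO replicate 1.

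Repeat copies around the main copy had almost no counts. Of 144 that start within 50000 bases on either side in the 5-FU table, 19 had any count and 0 passed the filter. They held 83 counts in all, beside 323186 at the main copy. The nearest ones, 515 bases before it and 118 bases after it, had 0 counts in all 14 libraries, and the 14 copies within 5000 bases had 7. The 135 neighbouring copies of the Nutlin table held 13 counts. The tables count repeats only, so EPCAM-DT itself was not measured.

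The likeness of other repeat copies to the main copy was measured by Pearson's r of log2 CPM over the 14 libraries of the 5-FU table. Among 63598 copies of other names the median r was -0.02, and 248 exceeded 0.9. The libraries share groups, and r over them is a description. The copy with the highest r, 0.988, is a FLAM_C, a free left Alu monomer, on chromosome 16 from 67844891 to 67845026.

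That FLAM_C copy had 1304 and 1110 counts in untreated cells, 1685 and 1633 in DMSO 6 h, 303 and 276 in DMSO 12 h, and 1116 and 1122 in DMSO 24 h. The 5-FU libraries had 1736 and 2322 (6 h), 3387 and 4194 (12 h), and 8181 and 8569 (24 h). It was low in DMSO 12 h and high in 5-FU 12 h and 24 h, as BC200 was. The copy was picked for its likeness over these same libraries, so this pattern and the values below are a description. In each of these libraries it had 92.7 to 144 counts per 1000 counts of the main BC200 copy. It was 10.2-fold above DMSO at 12 h and 8.01-fold at 24 h. How reads that match several copies were assigned is not given, and its part in this likeness was not tested.

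In the Nutlin table, which the choice of that copy did not use, it differed by 0.03 ± 0.11 between Nutlin and DMSO (edgeR adjusted p = 0.8998), and by -0.09 ± 0.14 without DMSO replicate 1. It had 1391 and 1150 counts in DMSO and 1653 and 1073 with Nutlin. The remaining FLAM_C copies together differed by 0.69 ± 0.09 at 12 h and 0.15 ± 0.09 at 24 h with 5-FU.

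**Figure D5:**
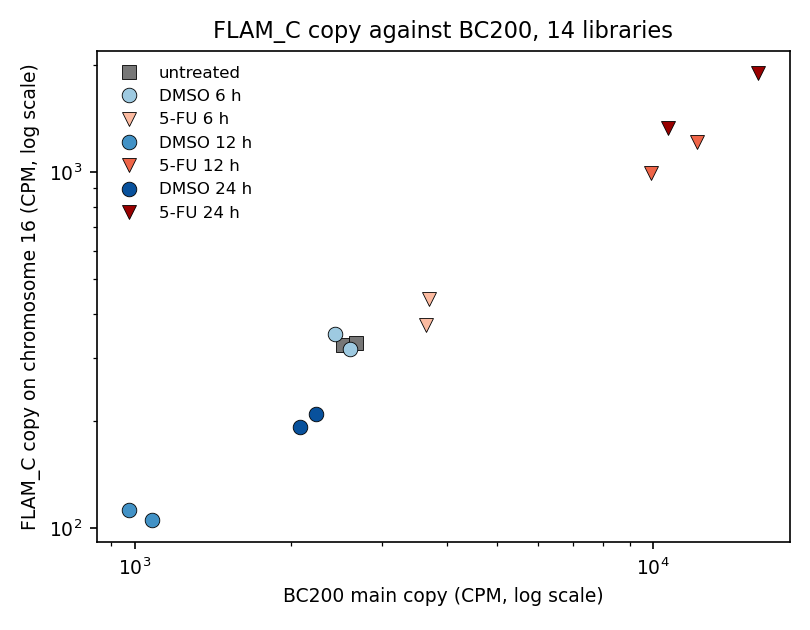
CPM of the FLAM_C copy on chromosome 16 (vertical log axis) against CPM of the main BC200 copy (horizontal log axis) in the 14 libraries of the 5-FU table. Symbols give the group. The DMSO 12 h libraries lie at the lower left and the 5-FU 12 h and 24 h libraries at the upper right, with r = 0.988 on the log2 scale.

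The next 4 copies by likeness, picked in the same way over the same libraries, had far fewer counts. A MIR3 copy on chromosome 2 (from 9496873, r = 0.976) was at 0 counts in DMSO 12 h replicates 1 and 2 and at 27 to 31 in 5-FU 12 h. An AluSc5 copy on chromosome 17 (from 40562650, r = 0.975) had 4 to 5 and 68 to 93 counts in those groups. An AluJr copy on chromosome 2 (from 235954931) and an AluSz copy on chromosome 5 (from 10279657) both had r = 0.969. The AluSz copy was higher with Nutlin by 1.73 ± 0.24 on the log2 scale (edgeR adjusted p = 0.000948), at 13.7 ± 2.81 CPM against 4.10 ± 0.93, whereas the BC200 sum was not called there. Without DMSO replicate 1 the AluSz difference was 1.97 ± 0.31 and still passed.

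The other RNAs of polymerase III were taken as a list of repeat names, each summed over its copies, of which 64 of 69 passed the filter in the 5-FU table. At 6 h 0 of them passed, as did 0 of all 1078 names (edgeR, adjusted p under 0.05). At 12 h 34 rose and 0 fell, with a median log2 difference of 1.14. Of these, 31 were among the 56 transfer RNA names, whose median was 1.36. The 8 other names gave 3 higher and a median of 0.57. These values too are against DMSO 12 h alone, and the list was not tested against the other DMSO groups. Of all names 28.5% rose and 5.29% fell at that time, with a median of 0.17. At 24 h 18 rose and 0 fell, with a median of 0.66, while 10.9% of all names rose, 1.21% fell and the median was 0.13. The 18 were 13 transfer RNA names and 5 of the others, groups with medians of 0.65 and 0.66.

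The counts moved with the scaling. At 12 h on library size alone the median of all names was -0.40. All names split into 61 higher and 436 lower there, where the main scaling gave 307 and 57. Of the list 25 rose and 4 fell, and of its 8 names other than transfer RNAs 1 rose and 2 fell. At 24 h the list's 18 higher and 0 lower became 11 and 0 on library size and 11 and 1 on RLE size factors. All names split into 117 higher and 13 lower on the main scaling, 29 and 18 on library size and 47 and 33 on RLE size factors at that time. At 12 h the summed BC200 copies differed by 3.07 on library size alone and by 3.64 on the main scaling. At 24 h the BC200 sum differed by 2.42 on library size alone and by 2.68 on the main scaling. BC200 thus lay above the list's median at both times under either of these scalings, values that belong to the contrasts it was picked for.

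Among named members of the list, the transfer RNA name tRNA-His-CAY_ rose at 12 h by 1.81 ± 0.16 and tRNA-Tyr-TAC by 1.43 ± 0.20, both under all 4 scalings. Y RNAs bind the Ro60 protein. HY1 had a log2 difference of 0.42 ± 0.19 at 12 h, with its sign turned on library size alone, and rose by 1.30 ± 0.19 at 24 h. HY3 differed by 0.00 ± 0.15 at 12 h, below 0 under the other 3 scalings and called lower on library size alone, and rose by 1.25 ± 0.15 at 24 h. U6, the spliceosomal RNA, rose by 0.73 ± 0.15 at 12 h and 0.47 ± 0.14 at 24 h, calls that held under 3 and 1 of 4 scalings.

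7SL RNA had a log2 difference of 0.11 ± 0.21 at 12 h, of the opposite sign under the other 3 scalings and called lower on library size alone, and rose by 0.86 ± 0.22 at 24 h, a call that held under 3 of 4 scalings. The 5S ribosomal RNA name had 0.87 ± 0.52 at 12 h and -0.84 ± 0.48 at 24 h, and passed at neither time. Its level in DMSO 24 h was 243 ± 232 CPM. HY4 rose by 0.83 ± 0.22 at 12 h and 0.66 ± 0.20 at 24 h, calls that held under 2 and 1 of 4 scalings, and HY5, at under 7 CPM in each group mean, passed at neither time. The members of the list thus did not all pass at the same time, and the difference between the times was not tested.

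With Nutlin, 3 of 53 names of the list rose and 4 fell, beside 9.63% and 3.11% of all 1028 names. tRNA-Ala-GCA fell by 1.095 ± 0.13 on the log2 scale, from 48.6 ± 2.84 to 22.7 ± 1.53 CPM, and by 1.15 ± 0.16 without DMSO replicate 1. 7SK was among those that rose. Without DMSO replicate 1, 0 of the 53 rose and 3 fell, with a median of -0.14, and 58 of all names rose and 17 fell. The median of the list was -0.06 and that of all names 0.07. On library size alone 1 of the list rose and 8 fell, and all names split into 43 higher and 188 lower where the main scaling gave 99 and 32. In DMSO 6 h against untreated cells 10 of 64 rose and 0 fell, beside 5.94% and 2.6% of all names. Over the other scalings the list's count ran from 2 higher on RLE size factors to 20 higher with TMM factors from the filtered copies, with 0 lower. All names split into 64 higher and 28 lower on the main scaling, 14 and 36 on library size, 18 and 35 on RLE size factors and 156 and 26 with those TMM factors.

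The old Alu monomers and dimers of the lineage from which BC200 derives, FLAM_A, FLAM_C, FRAM, FAM, AluJo and AluJb, were 6 further names. At 12 h all 6 rose, with a median log2 difference of 0.57, but on library size alone 1 did, with a median of 0.00. FLAM_C was that name, at 1.01 ± 0.11 and at 0.44 on library size. At 24 h FLAM_C alone rose, by 0.62 ± 0.11, a call lost on RLE size factors, where 0 of the 6 passed. That name holds the copy on chromosome 16, and without it the FLAM_C difference at 24 h was 0.15 ± 0.09. As that copy was picked for its likeness to BC200 over these same libraries, the value without it is a description. With Nutlin, at 5-FU 6 h and for DMSO 6 h against untreated cells 0 of the 6 passed. With Nutlin 5 of the 6 fell on library size alone and 1 on RLE size factors. On the main scaling their median log2 difference was -0.03, and -0.07 without DMSO replicate 1. The fit without that library was run on the main scaling only.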

How the data were processed

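Raw counts per repeat copy were used as the authors deposited them, in a 5-FU table and a Nutlin table. Per the submitters' processing notes, Trimmomatic 0.32, cutadapt 1.10, Bowtie2, edgeR, DESeq2 and build hg19 were used. The counting program, the handling of reads that match several copies and the use of strand are not given in the sources used here.

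BC200 and the lists of related RNAs were chosen with earlier results of these data known. Calls came from edgeR 4.0.16 in R 4.3.3 (limma 3.58.1, data.table version 1.17.8), with quasi-likelihood tests on TMM-scaled counts after filterByExpr, a mean per group and 1 fit per table, adjusted over all 63602 or 21328 copies. Fits over names used sums over copies, scaled by all copies of the table. The filter used groups of 2 libraries or more. As first run it also counted the single untreated Nutlin library as a group. It was changed after that result was seen, and the closing section gives the earlier value. Fits that left out a library kept the tested copies fixed, also a change made after a first run. The Nutlin values without DMSO replicate 1 were added after seeing the data.

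Alternatives were DESeq2 1.42.0, other scalings and filters, a replicate block, other controls and left-out libraries. The procedure was tested on simulated data. Python 3.11.15 (pandas 2.3.3, numpy 2.4.6, scipy 1.17.1, matplotlib 3.10.9) served for tables and plots. Named were the main copy, the 3 other copies with the highest mean CPM that passed the filter, the 5 copies of other names with the highest r, and members of the lists. The X-linked copy and the added sum were chosen after their values were seen. Sequences of BC200 and its copies are not reported here.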

Additional observations from a re-analysis of the deposited data

How the results depend on the processing

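The Nutlin difference at the main copy (0.93) turned on DMSO replicate 1: left-out libraries gave -0.079 (without it) to 9.48 (without DMSO replicate 2), and it passed the threshold without DMSO replicate 2 or either Nutlin replicate (0.98 and 0.85). The sum of all BC200 copies gave -0.016, and the main and X-linked copies added together (an alternative chosen after seeing the data) gave -0.043. Without a filter it was 0.92, with an adjusted p of 0.0178, and the cause was not tested. With the untreated library counted in the filter, as first run, 35959 copies were tested and the difference was 0.95 (adjusted p = 0.679), while the X-linked copy then passed (log2 difference -12.3, adjusted p = 0.00117). For 5-FU 6 h the difference without a filter was 0.67 (adjusted p = 0.00126), and left-out libraries gave 0.50 to 0.59. Under the other scalings and filters, with DESeq2 and with a replicate block the 5-FU 6 h difference did not pass. Without a filter, a count of 1 or more in any library sufficed.

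The 12 h difference was 3.09 on library size alone, 3.66 without a filter and 2.24 with DMSO 6 h and 24 h as controls, and 3.27 to 3.56 with a library left out. At 24 h it was 3.05 with DMSO 6 h and 12 h as controls and 2.30 to 2.88 with a library left out. Both stayed above 0 in all 15 alternatives run for each. BC200 was picked for these contrasts and the alternatives use libraries of the same table, so this is a description only. The difference of DMSO 6 h from untreated cells was below 0 in 11 of its 14 alternatives, down to -0.25 on library size alone, and above 0 in 3. It was 0.10 with at least 10 counts in every library, 0.0082 with only the libraries of the comparison, and -0.10 to 0.00083 with a library left out. It passed the threshold in none of them.

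With 2 per group, same-numbered samples deviated with correlations of -0.0155 to 0.139, the highest at 5-FU 24 h. Counting error in copies with few counts lowers such values, so they do not settle whether replicates were paired. With a replicate block the differences were 4.06 (Nutlin), 0.54, 3.42 and 2.62 (5-FU at 6, 12 and 24 h) and -0.04 (DMSO 6 h), with no tested call changed. A left-out library leaves a group of 1, assumed to vary like the others.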

Other observations

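Other sets of like copies also had their counts at a different copy in 1 library. Sets were copies of 1 name with the same repeat positions and at least 300 counts per library, of which the 5-FU table had 470 and the Nutlin one had 564. In 2 sets of each table the same copy held at least 90% of the counts in all libraries but 1, and another copy did so in that library. BC200 is not among them, since its X-linked copy has other repeat positions. The sets were looked for after the BC200 counts were seen.

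An L1MC5a pair on chromosome 5 was such a set in both tables. In DMSO 12 h replicate 1 of the 5-FU table the copy from 70248222 had 20 counts and the copy from 69372802 had 708, while elsewhere the former had 797 to 1355 and the latter at most 39. In DMSO replicate 1 of the Nutlin table they had 45 and 906 counts, against 782 to 1126 and at most 21 elsewhere. That library is the one in which BC200 counts stood at the X-linked copy.

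The other set was of U1, the spliceosomal RNA, with 27 copies. Its usual copy on chromosome 1, from 16840617, had 16 counts in DMSO 12 h replicate 1, where the copy from 16993280 had 43359. In Nutlin replicate 2 the usual copy had 126 counts and the copy from 149224058 had 81603.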
